A study of Mus musculus with 6 samples.

Results

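The T cell receptor alpha locus of the mouse supplies the variable (Trav), joining (Traj) and constant (Trac) pieces from which each alpha chain is assembled. All genes with a GENCODE symbol that starts with Trav or Traj, together with Trac, were taken as its members, which gave 189 of the 55487 genes in the deposited tables: 128 Trav segments, 60 Traj segments and Trac. Poly(A) RNA had been sequenced from naive CD4+ T cells of the spleen, all from wild-type mice of strain C57BL6/J, in 3 libraries from mice that received no treatment and 3 from mice given rapamycin, which inhibits the kinase mTOR. The labels give no dose, duration or age and do not tie libraries to mice, so that p-values reflect spread among libraries and that spread may be technical. The comparison asks how mTOR inhibition alters these cells, here read through the level of the locus and through the share of its Trav transcripts that each segment contributes.

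A T cell makes its alpha chain in the thymus by cutting and joining the DNA of a Trav and a Traj segment, and the joined exon is then spliced to Trac. Joining can be repeated on the same chromosome, each round replacing the earlier one with a Trav segment lying farther upstream and a Traj segment lying farther downstream, so that position along the locus bears on when a segment is used. A mature naive T cell no longer recombines, and the Trav segments in its RNA are those of the receptors that its population carries. A few T cell types use fixed alpha chains: invariant NKT cells join Trav11 to Traj18, and MAIT cells join Trav1 to Traj33.

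All members lie on the plus strand of mouse chromosome 14 (build GRCm38, which mm10 names). The Trav segments run from chr14:52427928-52428876 (Trav1, the most distal) to chr14:53977153-53977678 (Trav23, the most proximal), 1793 to 243 kb upstream of Trac, and the Traj segments lie 65.5 to 1.71 kb upstream of it. Trac is at chr14:54220521-54224206. The annotation has 108 Trav and 51 Traj segments as genes and 20 and 9 as pseudogenes. Much of the Trav region is present in near-copies, marked in the symbols by the letter d for the distal copy, n for the next copy and no letter for the most proximal copy.

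The Traj segments are the pieces that these data could not count. They are between 29 and 72 bases long, shorter than the sequenced fragments (means of 240 to 258 bases, as the deposited lengths imply), the deposited effective length was 0 for all 60 in every library, and 0 of 60 had a count. For the joining part of the fixed receptors only the sequence can therefore be given. The Traj18 and Traj33 segments are shown whole because they define invariant NKT and MAIT cells, with capitals for the codons that matched the conserved joining motif (Phe-Gly-X-Gly or Trp-Gly-X-Gly, read on the coding strand only), a match found in 44 of 51 Traj genes and 1 of 9 Traj pseudogenes. They lie at chr14:54200777-54200842 and chr14:54185358-54185414.
Traj18: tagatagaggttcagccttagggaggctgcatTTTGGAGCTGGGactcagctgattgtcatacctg
Traj33: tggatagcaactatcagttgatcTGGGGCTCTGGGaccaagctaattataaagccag

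What separates the Trav copies decides which of them the counts can tell apart. 34 Trav segments form 17 pairs whose longest annotated transcripts are identical, and the deposited counts divide the reads of each such pair. Allowing the shorter transcript to be contained in the longer brings this to 42 segments in 21 groups, and these held 28.4 to 29.7% of the Trav counts in untreated and 30.3 to 33.0% in rapamycin libraries. Trav14d-1 and Trav14n-1 are such a pair, identical over 415 bases, while Trav14-1 differs from them at 19 of 399 aligned bases. The last 120 bases of the V exon are shown for both forms, with capitals where they differ (chr14:52856047-52856166 and chr14:53554439-53554558), since the pair had the largest share of Trav counts.
Trav14d-1: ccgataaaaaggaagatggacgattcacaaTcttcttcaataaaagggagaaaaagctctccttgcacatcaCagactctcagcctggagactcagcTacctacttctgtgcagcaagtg
Trav14-1: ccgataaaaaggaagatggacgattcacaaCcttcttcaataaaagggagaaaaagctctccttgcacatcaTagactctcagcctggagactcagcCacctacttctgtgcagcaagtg

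Trav9n-4, the segment whose share was called lower, differs from its proximal relative Trav9-4 at 11 of 395 aligned bases. The last 120 bases are given in the same way (chr14:53294911-53295030 and chr14:53676511-53676630). Its distal relative Trav9d-4 has no mismatch to it and lacks 30 bases within the exon.
Trav9n-4: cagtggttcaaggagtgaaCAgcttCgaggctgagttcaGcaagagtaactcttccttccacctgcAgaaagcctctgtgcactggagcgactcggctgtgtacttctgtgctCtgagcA
Trav9-4: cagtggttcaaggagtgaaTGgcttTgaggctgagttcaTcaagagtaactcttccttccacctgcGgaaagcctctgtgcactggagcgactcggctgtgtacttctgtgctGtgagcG

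In other pairs a single base at the end of the annotated exon is all that differs. The last 60 bases are shown with that base in capitals for Trav7d-2 and Trav7-2 (chr14:52684413-52684472 and chr14:53391083-53391142) and for Trav11 and Trav11d (chr14:53519800-53519859 and chr14:52824853-52824912), because their counts fell wholly on either copy.
Trav7d-2: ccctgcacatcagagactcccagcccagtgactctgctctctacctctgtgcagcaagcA
Trav7-2: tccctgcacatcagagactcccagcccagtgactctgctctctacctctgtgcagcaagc
Trav11: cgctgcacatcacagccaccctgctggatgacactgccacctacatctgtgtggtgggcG
Trav11d: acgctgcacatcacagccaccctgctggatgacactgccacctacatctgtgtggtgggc

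The libraries held between 8757280 and 11393317 expected counts, so that a floor of 3 counts came to 0.263 to 0.343 CPM (counts scaled to a common library size) on the raw totals; this floor covers counting error alone. The naive CD4 T cell markers were present, with Cd4 at 676 to 728 CPM on the TMM scale. Markers of other cells moved with the groups, and their part in the results below was not tested. Their counts stand beside 24.1% of all tested genes that rose and 23.3% that fell. Of 3 CD8 T cell markers 2 rose, and their summed level went from 26.7 to 27.2 CPM in untreated to 98.1 to 99.7 CPM in rapamycin libraries. All 5 myeloid markers fell (36.6 to 38.3 against 7.64 to 9.73 CPM summed), as did 3 of 5 B cell markers (1153 to 1190 against 864 to 906 CPM), and 2 of the 3 tested of 4 NK markers (17.5 to 20.3 against 11.4 to 13.7 CPM). Of 6 innate-like T cell markers 3 fell and 1 rose among 5 tested (18.6 to 20.6 against 11.0 to 14.4 CPM). Zbtb16, a marker of invariant NKT and other innate-like T cells, was between 0 and 0.380 CPM in all libraries. Of 3 regulatory T cell markers 1 rose (7.57 to 8.91 against 11.2 to 14.3 CPM), and of 5 gamma-delta T cell markers 1 was tested and not called.

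Trac, which encodes the constant part of every alpha chain, fell with rapamycin. Its level was 677, 688 and 670 CPM in the untreated libraries and 388, 396 and 389 CPM in the rapamycin libraries, so that every rapamycin library lay below every untreated one. This was a log2 fold change of -0.80 ± 0.02 (SE; 95% interval -0.84 to -0.75; n = 3 libraries per group), and the adjusted p was 3.0e-37 (edgeR's quasi-likelihood test, Benjamini-Hochberg over 11950 tested genes). As a share of all counts Trac fell from 0.0687% ± 0.000942 (SD, n = 3) to 0.0385% ± 0.000451, and an exact two-sided permutation test over libraries gave p = 0.1, the smallest that 3 against 3 allows. Corrections for length gave smaller values of the same sign: -0.52 ± 0.02 with a spline on gene length, -0.65 ± 0.04 with the deposited effective lengths, and -0.54 ± 0.04 on the log2(TPM + 1) scale. In bulk RNA, fewer cells that carry a transcript and less of it per cell cannot be told apart.

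The deposited gene length of Trac, which is the mean over its annotated transcripts weighted by their estimated abundance, also differed. It was 900, 891 and 908 bases in untreated and 874, 817 and 834 bases in rapamycin libraries, without overlap. The annotation has a transcript of 935 bases and one of 413 bases that stops at the end of the coding sequence. Read against those 2 lengths, the shorter model's estimated share was 6.78% ± 1.62 in untreated and 17.9% ± 5.62 in rapamycin libraries (SD, n = 3).

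The Trav segments summed to 2075, 1965 and 1800 counts in untreated and 1061, 1027 and 1003 in rapamycin libraries. On the CPM scale this was 180, 187 and 183 against 116, 116 and 116, a log2 ratio of the group means of -0.66. Every rapamycin library was again below every untreated one. Per 100 Trac counts there were 27.0 ± 0.402 Trav counts in untreated and 29.7 ± 0.379 in rapamycin libraries, the rapamycin libraries all being higher. Per length this order was not kept: per 100 TPM of Trac the summed Trav level was 116, 118 and 122 TPM in untreated and 136, 116 and 127 TPM in rapamycin libraries, which overlap. In every library the summed Trav level per length was above that of Trac.

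**Figure D1:**
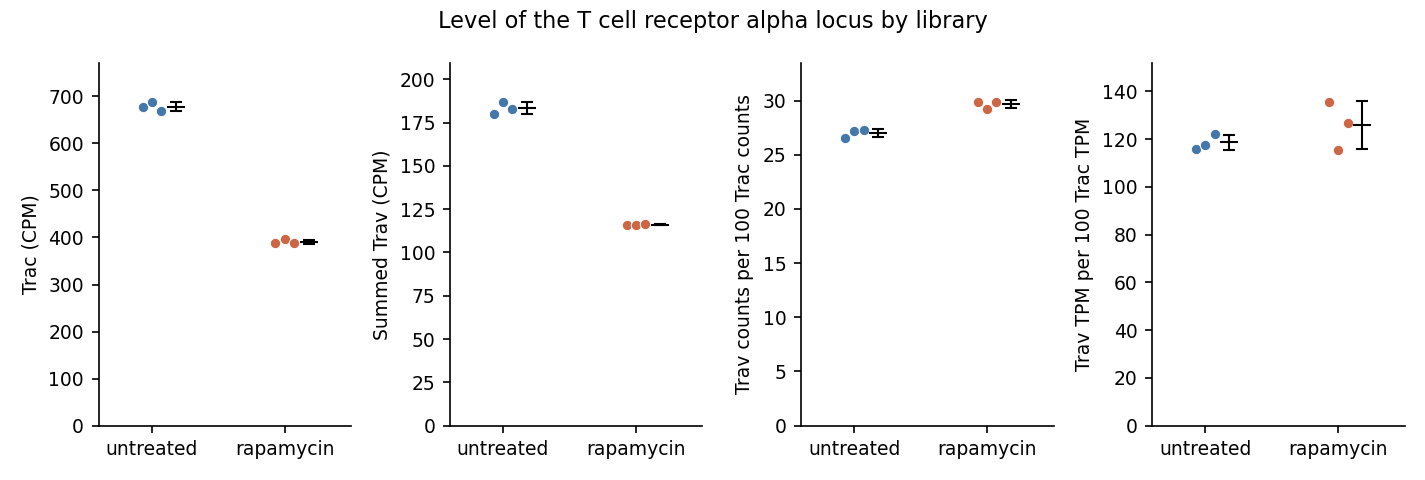
Level of the alpha locus in each library: Trac and the summed Trav segments in CPM (TMM scale), Trav counts per 100 Trac counts, and Trav TPM per 100 Trac TPM. Points are libraries, 3 per group, and bars give the mean and SD; the first 2 measures are lower in all rapamycin libraries (Trac 388 to 396 against 670 to 688 CPM), the third is higher in all of them, and the last overlaps.

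Among single Trav segments the falls were many and no segment rose. Of the 128 segments, 112 had a count in some library and 54 passed the filter on low counts; 16 were at 0 throughout, of which 13 are annotated as pseudogenes. Of the 54 tested, 21 fell and 0 rose, and 51 had a fold change below 0, with a median log2 fold change of -0.66 against -0.01 over all tested genes. No segment with a positive fold change reached an unadjusted p under 0.05, and DESeq2 and limma-voom called 0 higher as well. The 21 that fell were 38.9% of the tested segments, and 23.3% of all 11950 tested genes were lower at the same threshold. In 30 of the 54 (55.6%) all rapamycin libraries lay below all untreated ones in CPM, as did 26.8% of all tested genes. Members of an identical pair carry the same reads and enter these numbers as separate segments, and segments are no replicates of each other.

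The count of lower segments depended on how length was treated. Trav segments are short, with a median deposited length of 354 bases, and the mean effective length of those with at least 10 counts was 171 ± 0.890 bases in untreated and 159 ± 0.762 bases in rapamycin libraries. With the length correction 2 of the 54 fell, Trav9n-4 and Trav8n-2, and the median was -0.23, beside 18.3% of all tested genes lower in that fit. With effective-length offsets 10 fell and the median was -0.56, beside 15.1% of all tested genes. On the log2(TPM + 1) scale, tested with limma, 15 fell and the median was -0.44, beside 9.63% of all tested genes and a median of 0.09 over them. No segment was called higher in these 3 fits.

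Among the segments that fell, Trav9-1 went from 4.42, 6.35 and 5.76 to 1.64, 3.05 and 3.36 CPM, a log2 fold change of -1.04 ± 0.25 (SE, adjusted p = 0.00039, edgeR). Its libraries did not overlap. Trav4-4-dv10, a segment that can also join to the delta chain, went from 6.16, 5.52 and 4.58 to 2.89, 3.84 and 2.36 CPM (-0.86 ± 0.24, adjusted p = 0.00206, edgeR). Trav9-2, the single segment with the highest level, went from 6.33, 8.09 and 6.51 to 4.81, 3.84 and 5.33 CPM (-0.58 ± 0.20, adjusted p = 0.0121, edgeR), also without overlap. Trav3-3 fell by 0.69 ± 0.23 on the log2 scale, Trav12-3 by 0.96 ± 0.27, Trav14-2 by 0.76 ± 0.28 and Trav10 by 0.62 ± 0.25. None of these named segments passed the threshold with the length correction (adjusted p = 0.0515 for Trav9-1 and 0.442 for Trav9-2, edgeR). With effective-length offsets Trav9-1, Trav4-4-dv10 and Trav12-3 passed it and the others did not. Of the other leading segments, Trav7-4 (-0.53 ± 0.24, adjusted p = 0.0639), Trav6-7-dv9 (-0.58 ± 0.28, adjusted p = 0.0776) and Trav6-5 (-0.21 ± 0.25, adjusted p = 0.503) were not called by edgeR. Trav14d-1 and Trav14n-1, the identical pair with the highest level, were at 106 to 130 counts together in untreated and 73 to 110 in rapamycin libraries, and each had a log2 fold change of -0.07 ± 0.21 (adjusted p = 0.809, edgeR).

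A fall shared by all segments cancels when each is taken as a share of the summed Trav count of its library, which is called usage here. Usage was spread over many segments and was much alike in both groups. Taking segments of a shared sequence as 1 unit, the 10 units with the highest mean shares held 31.7% of Trav counts in untreated and 34.2% in rapamycin libraries. Over 47 units with a mean of at least 10 counts, shares in 2 libraries correlated with Pearson's r of 0.81 to 0.92 within a group and 0.76 to 0.88 between groups, as a description across units that share libraries and depth. The variance of unit shares within a group was 1.84 times that of counting alone in untreated and 1.44 times in rapamycin libraries, as a mean over the 47 units. For other genes of 10 to 120 counts it was 1.90 and 1.79 times. The medians lay nearer to counting alone, at 1.18 in untreated and 1.07 in rapamycin libraries for the units and 1.13 and 1.10 for the other genes.

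**Figure D2:**
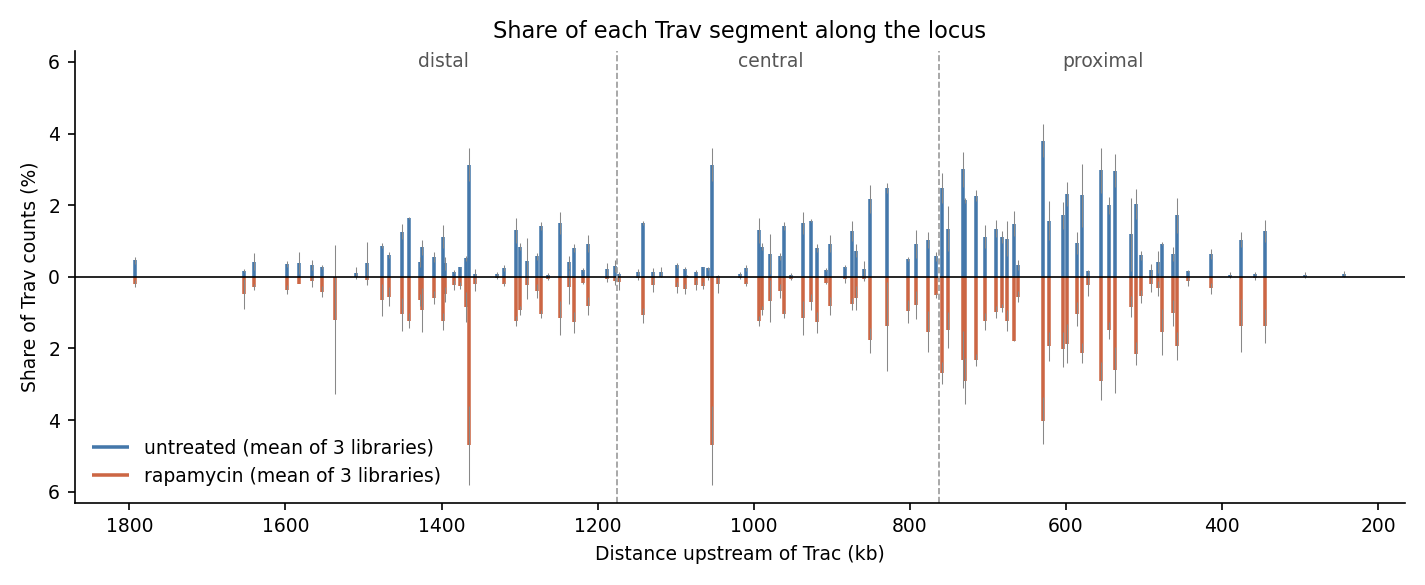
Share of all Trav counts held by each of the 128 Trav segments, against distance upstream of Trac in kb; bars above the line are means of the 3 untreated libraries, bars below the line are means of the 3 rapamycin libraries, and thin grey lines give the SD. The tall bars at 1365 and 1054 kb are Trav14d-1 and Trav14n-1, at 3.13% in untreated and 4.71% in rapamycin libraries each, and dashed lines part the distal, central and proximal groups.

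Of the 54 segments tested, 2 were called higher and 1 lower in usage, and 4 had an unadjusted p under 0.05. In that fit 47.2% of all tested genes were called in either direction, but genes other than Trav were tested there for level. That share is therefore no background for usage. P-values were adjusted over all these tests, and an adjustment over the Trav rows alone was not run. The many calls of level ease the adjustment, so the calls in usage may not hold under one over the Trav rows alone. The unadjusted p was 0.00601 for Trav14d-1 and 0.00405 for Trav9n-4 (edgeR). The 2 that rose are the identical pair Trav14d-1 and Trav14n-1. Together they held 6.17, 5.39 and 7.22% of Trav counts in untreated and 6.88, 10.7 and 10.7% in rapamycin libraries. The first rapamycin library lies within the untreated range and the others lie above it. Each of the pair had a usage log2 fold change of 0.59 ± 0.21 (SE, adjusted p = 0.0152, edgeR), and taken as 1 unit the value was 0.59 ± 0.15 (95% interval 0.29 to 0.89; adjusted p = 0.000889, edgeR). The call on the separate segments was lost with DESeq2 (adjusted p = 0.0569), with effective-length offsets (adjusted p = 0.0952, edgeR), and without untreated library 2 (adjusted p = 0.0647, edgeR), rapamycin library 2 (0.0890) or rapamycin library 3 (0.0928).

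Trav9n-4 was called lower in usage. It held 1.52, 1.57 and 1.59% of Trav counts in untreated and 0.566, 0.974 and 0.568% in rapamycin libraries, from 28.7 to 31.5 and 5.70 to 10 counts. All rapamycin libraries were below all untreated ones. Its usage log2 fold change was -1.14 ± 0.38 (SE, adjusted p = 0.0108, edgeR), and without rapamycin library 1 it was -0.99 with an adjusted p of 0.0591. Summed with Trav9d-4, whose sequence it shares outside the 30 missing bases, it held 1.96% ± 0.217 and 0.978% ± 0.415 (SD, n = 3), still without overlap.

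When segments of a shared sequence were summed, 47 units were tested, and 2 were called higher and 1 lower. Of all features 47.2% were called, those other than Trav again being tested for level. P-values were again adjusted over all features, and the calls may not hold under an adjustment over the Trav units alone, which was not run. The second unit that rose was the pair Trav4d-4 and Trav4n-4, with 1.45, 1.53 and 1.83% in untreated and 2.88, 1.85 and 2.85% in rapamycin libraries. All rapamycin libraries were above all untreated ones, by a narrow margin in the second. The usage log2 fold change was 0.68 ± 0.28 (1.60-fold, 95% interval 1.08 to 2.37), with an unadjusted p of 0.0207 and an adjusted p of 0.0446 by edgeR. The other units had usage log2 fold changes from -0.77 (Trav8n-2, adjusted p = 0.104, edgeR) to 0.74 (Trav16, adjusted p = 0.089), both named after their values were seen. The shares of Trav8n-2 did not overlap between groups (1.27% ± 0.274 in untreated and 0.747% ± 0.168 in rapamycin libraries). The median 95% interval of a unit spanned 1.54-fold either way.

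**Figure D3:**
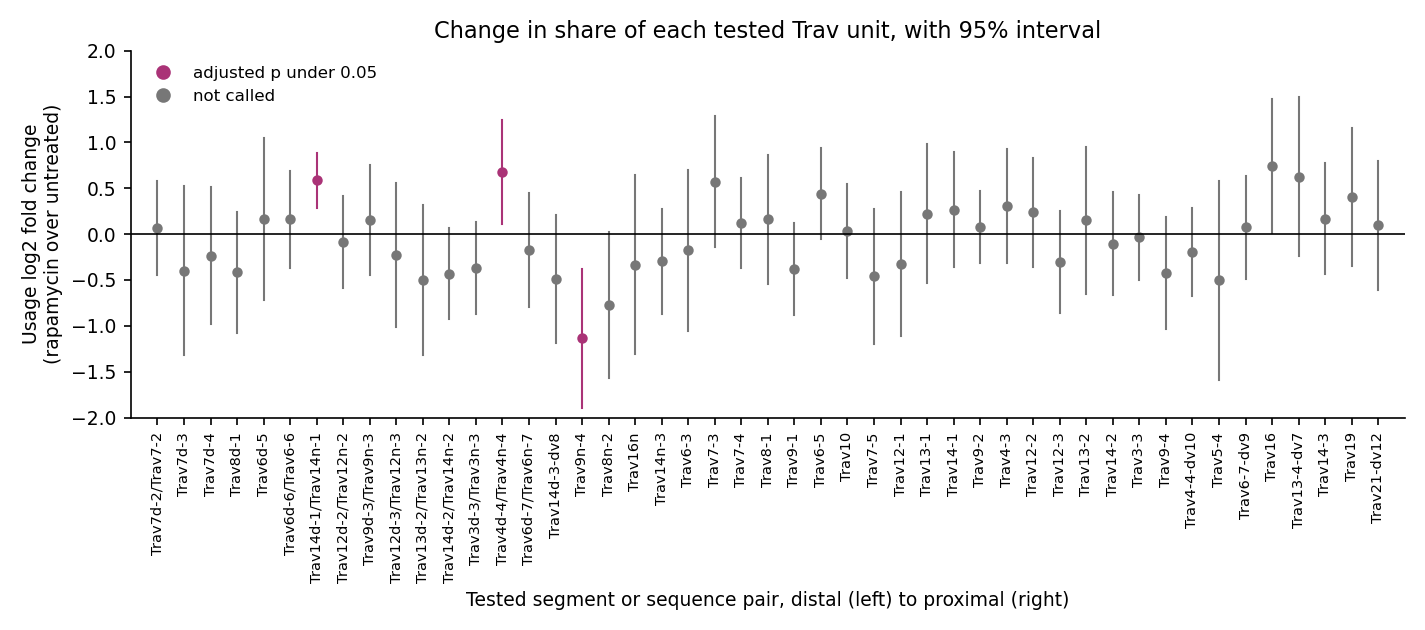
Usage log2 fold change (rapamycin over untreated) of the 47 tested Trav units, ordered from distal to proximal, pairs of a shared sequence placed at their distal member; lines are 95% intervals from edgeR. The Trav14d-1/Trav14n-1 and Trav4d-4/Trav4n-4 pairs lie above 0 and Trav9n-4 below it with an adjusted p under 0.05 (adjusted over all features), and the intervals of most other units include 0.

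For the largest single segments the 95% interval of the usage change included 0. Trav9-2 held 3.80% ± 0.455 of Trav counts in untreated and 4.01% ± 0.648 in rapamycin libraries, a usage log2 fold change of 0.08 with a 95% interval of -0.32 to 0.47. Trav3-3 held 2.97% ± 0.627 and 2.91% ± 0.529, with an interval of -0.50 to 0.43. Trav9-1 held 2.46, 3.40 and 3.15% against 1.41, 2.63 and 2.89%, with an interval of -0.89 to 0.12. Trav10 held 2.26% ± 0.149 and 2.33% ± 0.171, with an interval of -0.48 to 0.55. Trav6-5 was higher in every rapamycin library (2.36, 3.60 and 2.75% against 2.11, 2.09 and 2.22%), with an interval of -0.06 to 0.94 and an adjusted p of 0.142 by edgeR.

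Some near-identical copies, chosen after their values were seen, changed places from library to library. Trav7-2 had 48, 51 and 45 counts in untreated and 0, 18 and 24 in rapamycin libraries, while Trav7d-2, which has 1 more base at its end, had 0 counts in all libraries but the first of the rapamycin group, where it had 38. Added together the pair held 2.31, 2.59 and 2.50% of Trav counts in untreated and 3.58, 1.75 and 2.39% in rapamycin libraries, which overlap. Trav12d-3 had 0, 2.53 and 21 counts in untreated libraries where Trav12n-3, 6 bases longer, had 20, 18.5 and 0. Their sums were 20, 21 and 21 in untreated and 11, 7 and 10 in rapamycin libraries, or 1.07% ± 0.101 and 0.905% ± 0.195 of Trav counts. The Trav12 sums varied little within a group, and the Trav7 sums ranged from 18 to 38 counts in rapamycin libraries.

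The Trav segments of the fixed receptors were rare. Trav11 was at 0 in every library and Trav11d, which ends 1 base earlier, had 7, 11 and 4 counts in untreated and 3, 5 and 7 in rapamycin libraries; together they held 0.373% ± 0.172 and 0.489% ± 0.208 of Trav counts. The groups overlap. Trav1 had 11, 7 and 9 counts in untreated and 3, 2 and 1 in rapamycin libraries, or 0.462% ± 0.0930 and 0.192% ± 0.0915 of Trav counts. All rapamycin libraries lay below all untreated ones, at or near the floor of 3 counts, and neither segment passed the filter for a test.

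Summing by family, the number after Trav in the symbol, joins most copies whose reads cannot be told apart. Of 23 families, 15 were tested and held 98.1% of untreated Trav counts. In level, 11 of the 15 fell, 0 rose and 4 were not called, beside 23.6% of all features lower in that fit. Family level was not fitted with a correction for length, on which the count of lower segments depended. In usage, 0 of 15 were called by edgeR, beside 47.4% of all features in that fit, those other than Trav being tested for level. Of the 15, 1 had an unadjusted p under 0.05, DESeq2 called 0 and limma-voom 1. The 6 largest families together held 71.2% of Trav counts in untreated and 72.5% in rapamycin libraries.

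Trav14 was the largest family, with 19.9, 16.9 and 18.0% of Trav counts in untreated and 18.8, 21.03 and 20.8% in rapamycin libraries, and its usage ratio was 1.11 with a 95% interval of 0.977 to 1.25. The groups overlap, although the family holds the pair that rose. The Trav6 family held 12.4% ± 1.34 and 13.0% ± 0.561, with a ratio of 1.05 (0.898 to 1.22). The Trav9 family held 13.1% ± 1.37 and 11.4% ± 1.39, with a ratio of 0.865 (0.738 to 1.01). The Trav7 family held 10.8% ± 0.465 and 10.8% ± 1.39, with a ratio of 1.01 (0.856 to 1.19). The Trav12 family held 9.33% ± 0.966 and 8.62% ± 1.02, and the Trav4 family 7.21% ± 0.854 and 8.44% ± 0.318, with ratios of 0.923 (0.770 to 1.11) and 1.17 (0.965 to 1.41).

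Of the smaller tested families, Trav15 and Trav8 had shares that did not overlap between groups. The CPM of 53.8% of all tested genes did not overlap in either direction, but this measures level and is no background for shares. Trav15 held 0.916, 0.458 and 0.667% in untreated and 1.13, 1.46 and 1.30% in rapamycin libraries, from 9 to 19 and 12 to 15 counts, with a usage ratio of 1.88 (95% interval 1.08 to 3.28; adjusted p = 0.0545, edgeR). It passed the threshold with limma-voom (adjusted p = 0.0366) and without untreated library 1 (adjusted p = 0.0420, edgeR). Without rapamycin library 2 the Trav16 family was called instead, with a usage log2 fold change of 0.72 (adjusted p = 0.0445, edgeR) against 0.39 with all libraries. Trav8 held 4.99% ± 0.702 and 3.91% ± 0.374, with a ratio of 0.787 (0.609 to 1.02). The families Trav17 (0.630% ± 0.132 and 0.325% ± 0.151) and Trav1, each a single segment too low to be tested, were lower in all rapamycin libraries. These families were named after their values were seen.

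**Figure D4:**
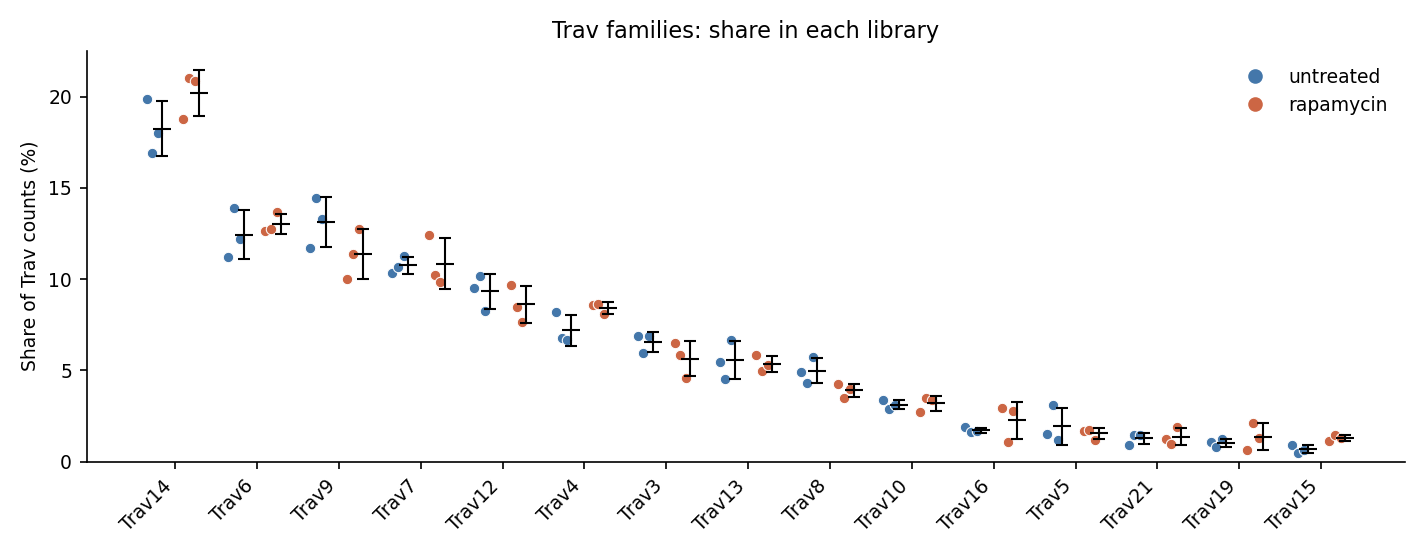
Share of all Trav counts in the 15 tested Trav families, ordered by mean share; points are libraries, 3 per group, and bars give the mean and SD. The groups overlap in each family except Trav8 and Trav15.

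By position, the proximal end of the locus supplied about as many Trav counts as the rest together. With the 128 segments split by order into 43 distal, 43 central and 42 proximal ones, the proximal group held 49.9, 49.5 and 48.9% of Trav counts in untreated and 49.6, 52.3 and 49.4% in rapamycin libraries, which overlap. The distal group held 23.8, 23.2 and 24.9% in untreated and 26.6, 23.9 and 24.4% in rapamycin libraries, also with overlap. The central group held 26.3, 27.3 and 26.3% in untreated and 23.9, 23.8 and 26.2% in rapamycin libraries, so that the rapamycin libraries were lower, the third by less than 0.1 of a percentage point. The means differed by 1.01, -1.98 and 0.97 percentage points (rapamycin minus untreated) in the distal, central and proximal groups. These are sums over the members and carry no test.

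With all segments counted, the distal and central values turned on where the reads of 1 near-identical pair were placed. In rapamycin library 1 all 38 counts of Trav7d-2 and Trav7-2, 3.58% of its Trav counts, were on the distal Trav7d-2, and in the other libraries they were on Trav7-2, which is central. With them counted at Trav7-2 throughout, that library had 23.0% distal and 27.5% central, the groups overlap in both, and the differences of the means were -0.18 and -0.79 percentage points. With the counts of all shared sequences divided evenly among their segments, the distal difference was -0.02 and the central mean was 25.3% ± 0.466 in untreated and 24.3% ± 0.947 in rapamycin libraries, again with overlap in both. The proximal difference was positive in each of these splits.

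Over equal stretches of distance the distal share was 17.9, 17.8 and 18.7% in untreated and 20.9, 19.9 and 19.2% in rapamycin libraries, without overlap, but with the Trav7d-2 counts at Trav7-2 the first rapamycin value was 17.3%, below all untreated libraries. The central share over these stretches was 32.4% ± 0.252 and 29.6% ± 1.81, without overlap, and 33.2% in rapamycin library 1 with that placement, above all untreated libraries. Over the 86 segments whose sequence neither holds nor is held in that of another, the distal share was 14.8% ± 0.628 in untreated and 13.4% ± 0.753 in rapamycin libraries, which overlap. The proximal share was 68.2% ± 0.262 and 72.1% ± 1.24, without overlap. The mean central share was lower with rapamycin in each split tried, while the distal direction changed with the segments counted.

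By copy, the 40 segments without a letter held 51.7% ± 0.660 of Trav counts in untreated and 52.5% ± 1.02 in rapamycin libraries, the 39 of the d copy, with Trav7d-2 among them, 23.3% ± 0.979 and 24.1% ± 1.59, and the 34 of the n copy 19.4% ± 0.353 and 18.2% ± 0.754. The n copy was lower in all rapamycin libraries (18.4, 17.4 and 18.8% against 19.7, 19.6 and 19.0%), narrowly in the third. Near-identical reads were left as deposited here, and no other placement was tried for the blocks. The d copy Trav9d-4, with no mismatch to Trav9n-4, held 0.573% in untreated and 0.828% in rapamycin library 3, each more than that margin. The 8 single segments at the distal end held 2.40% ± 0.222 and 2.07% ± 0.568, and the 7 at the proximal end 3.21% ± 0.160 and 3.09% ± 0.885. Of the 21 segments that fell in level, 5 of 12 tested were distal, 6 of 16 central and 10 of 26 proximal, beside 23.3% of all tested genes lower. The tested segments of these groups had median log2 fold changes of -0.81, -0.90 and -0.55. With the length correction only Trav9n-4 and Trav8n-2 stayed lower, and both are central. Across the 54 tested segments, the usage log2 fold change and the position had Pearson's r of 0.15 and Spearman's rho of 0.19, as a description over segments that share libraries and reads.

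**Figure D5:**
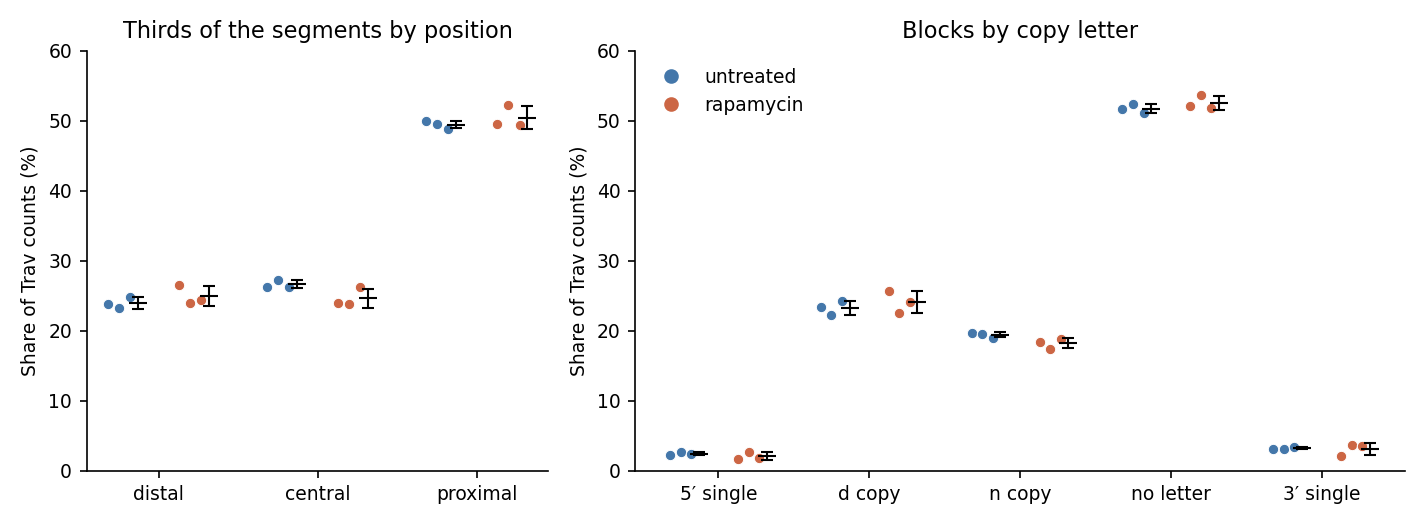
Share of all Trav counts by position, for distal, central and proximal segments (left) and for blocks by the copy letter of the symbol with the single-copy ends (right); points are libraries, 3 per group, and bars give the mean and SD. The proximal group holds 48.9 to 52.3% in all libraries, and the central group and the n copy are lower in the rapamycin libraries. The central groups overlap once the Trav7d-2 counts of rapamycin library 1 are moved to the central near-copy. Over segments of a sequence of their own (not drawn), the central share is lower in all rapamycin libraries.

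The breadth of usage was counted as the number of equally used units that would give the same chance of drawing a unit at random a second time (the inverse Simpson index, corrected for depth). Over units of a shared sequence it was 47.2, 48.5 and 47.5 in untreated and 44.6, 37.3 and 37.4 in rapamycin libraries, without overlap. Over families it was 9.60, 9.57 and 9.73 in untreated and 9.60, 9.31 and 9.18 in rapamycin libraries, with overlap. Rapamycin libraries had fewer Trav counts and more of them in segments of a shared sequence, as given above. Large shares weigh most in this index. The largest unit, Trav14d-1 with Trav14n-1, held 6.17, 5.39 and 7.22% in untreated and 6.88, 10.7 and 10.7% in rapamycin libraries. The index was not computed without this pair. The part of the counts, of shared sequence or of the pair in the first measure was not tested.

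The partners of the alpha chain moved less than Trac. Of 12 listed genes of the receptor complexes 11 were matched and 7 tested. Of these 5 fell and 0 rose, with a median log2 fold change of -0.27, beside 23.3% of all tested genes that fell. Trbc1 and Trbc2, the near-identical constant regions of the beta chain whose reads may be split uncertainly, fell by 0.41 ± 0.03 and 0.27 ± 0.02 on the log2 scale (CPM of 486 to 497 against 361 to 380, and 726 to 739 against 599 to 611). The signalling chains Cd3d, Cd3g and Cd247 fell by 0.34 ± 0.03, 0.32 ± 0.03 and 0.16 ± 0.03. Cd3e, with 353 to 360 CPM in untreated and 344 to 350 CPM in rapamycin libraries, was not called (-0.04 ± 0.03, adjusted p = 0.258, edgeR). The differences between these values and that of Trac were not tested.

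Chains of other receptors were low. Trdc, the delta constant gene that lies between the Trav and Traj segments, had 10.1, 10.7 and 10.3 CPM in untreated and 15.1, 9.70 and 13.1 CPM in rapamycin libraries (0.29 ± 0.14, adjusted p = 0.0925, edgeR). The gamma constant genes Tcrg-C1, Tcrg-C2 and Tcrg-C4 were under 1 CPM in every library, and Ptcra, the partner of the beta chain in thymocytes, was at 0.

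Of 10 listed genes of V(D)J recombination 9 were tested, 2 rose and 3 fell, with a median of 0.03, a share near the 47.4% of all tested genes called in either direction. Dntt, which adds untemplated bases at the joins in thymocytes, fell from 16.3, 16.3 and 17.9 to 8.63, 10.4 and 6.95 CPM (-0.95 ± 0.14, adjusted p = 2.6e-08, edgeR). The repair kinase Prkdc rose from a range of 103 to 106 CPM to one of 148 to 156 CPM (0.53 ± 0.04). Xrcc5, a subunit of the Ku end-binding complex, fell by 0.26 ± 0.09, and the nuclease Dclre1c rose by 0.26 ± 0.10. Rag1 was at or under 0.113 CPM in all libraries and Rag2 at 1.33 to 2.14 CPM. Of the 5 markers of thymocytes and recent emigrants, 2 of 3 tested fell, and their summed level was 44.5 to 47.0 CPM in untreated and 28.7 to 35.1 CPM in rapamycin libraries; their part in the Trav shares was not tested.

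Of the factors known at the alpha enhancer and at the boundaries of the locus, most rose. Of 17 listed and tested, 12 rose, 1 fell and 4 were not called, with a median of 0.17, beside 24.1% of all tested genes that rose. Ets1 rose by 0.19 ± 0.02, Elf1 by 0.31 ± 0.03, Lef1 by 0.23 ± 0.02 and Creb1 by 0.25 ± 0.03 on the log2 scale. Of the 41 other genes in or beside the locus 4 were tested and 1 was called, beside 47.4% of all tested genes called in either direction. Dad1, which lies next to the alpha enhancer downstream of Trac, fell from 80.5, 84.0 and 84.1 to 61.7, 60.5 and 59.0 CPM (-0.45 ± 0.05, adjusted p = 1.4e-10, edgeR). Abhd4, the next protein-coding gene, had 1.83 to 2.38 and 2.51 to 3.48 CPM and was not called (0.42 ± 0.30, adjusted p = 0.261, edgeR), nor was the delta segment Trdv2-2 (0.02 ± 0.42).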

How the data were processed

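Per the submitters' processing notes, STAR and RSEM were run against mm10; versions are not given in the sources used here. The deposited tables hold, per their file headers, the authors' expected counts, TPM and effective lengths for each gene. The authors' expected counts divide reads shared between genes, and were rounded to whole numbers for tests. The authors' TPM values are relative to effective length and depth. Symbols, positions and sequences came from GENCODE M21 on GRCm38, which matched 55227 identifiers.

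Genes kept by filterByExpr were tested with edgeR's quasi-likelihood method (TMM factors, group as the only term, robust). P-values were adjusted by Benjamini-Hochberg over all features tested, at a threshold of 0.05. For usage, the offset of Trav rows was the library's summed Trav count, and all other rows kept their TMM offsets. Families summed Trav rows by number. The standard error is the fold change over the square root of F. The length correction fitted log2 length with a spline (5 degrees of freedom). Members and lists were chosen with earlier results of these data known. Named were Trac, the leading segments and families by mean share, segments called in usage, those of the fixed receptors, the receptor complex list and up to 4 genes of each other list by adjusted p. Totals were 8757280 to 11393317 counts. The closing section gives the alternatives. Tools were edgeR 4.0.16, limma 3.58.1 and DESeq2 1.42.0 in R 4.3.3, and Python 3.11.15.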

Additional observations from a re-analysis of the deposited data

How the results depend on the processing

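No alternative reversed the fall of Trac (log2 fold change -0.84 to -0.52 over 17 alternatives, past the threshold in each), and in TPM the log2 ratio of group means was -0.54 for Trac and -0.46 for summed Trav, against -0.84 and -0.70 as shares of counts. Of 54 tested Trav segments, 21 were lower; the length correction left 2 and effective-length offsets, added after seeing the data, 10, while leaving out a library gave 14 to 21. In usage, 2 higher and 1 lower became 0 and 1 with DESeq2 and with effective-length offsets, and 0 to 2 and 0 to 1 on leaving out a library. Family usage had 0 calls, 1 higher with limma-voom, and 0 to 1 on leaving out a library. The distal and proximal differences of 1.01 and 0.97 percentage points became -1.41 and 3.89 over segments of a sequence of their own, a split added after seeing the data; the cause was not tested. With Trav7d-2 counted at Trav7-2, also added after seeing the data, the distal and central differences of 1.01 and -1.98 became -0.18 and -0.79, and with shared sequences divided evenly the distal one became -0.02. Leaving out a library gave 0.21 (without rapamycin library 1) to 1.54 distal, -2.78 to -1.56 central and 0.02 to 1.49 proximal. With the replicate number as a block, 19 segments were lower in level and the usage calls stayed at 2 and 1. Same-numbered libraries did not deviate together (r of -0.02, -0.01 and -0.03 over 9925 genes). With 3 libraries per group this cannot exclude a pairing by number, on which the labels are silent. Depth limits usage: the median 95% interval of a unit spanned 1.54-fold either way. The 5 blocks by copy letter have no counterpart among the distal, central and proximal groups and were not set against them.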
